A study of Mus musculus with 39 samples.

Results

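Of the 5 arrays of week 6, 4, those of the LFC, HFC, HF5 and HF75 mice, carried a set of fat depot genes unlike that of the other arrays labelled epididymal adipose. These 4 arrays, of 39 in the series, were compared with the 8 arrays of the same 4 groups at weeks 9 and 15, and the HF20 array of week 6 was kept apart as a check. The 4 arrays were chosen by the measured levels of the depot genes Wt1, Upk3b, Tcf21 and Tbx15 themselves, and every difference given here between week 6 and weeks 9 and 15 is a description of the chosen arrays and no test of them.

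The mice were C57BL/6J, divided after weaning at 3 to 4 weeks of age. LFC mice received the low fat diet with 10% of calories from fat, and HFC mice a high fat, high sucrose diet with 60% of calories from fat. HF5, HF20 and HF75 mice received the HFC diet together with 5, 20 or 75 ug of KAL-1, a botanical formulation given as an aqueous extract. Total RNA of the fat was hybridised to 1-colour Agilent arrays, and each group had 1 array at each time point, so that the replicates of week 6 here were arrays of 4 different diets. At each interval 5 animals of a group were killed, and how many of them an array stood for is not given in the labels. Weeks were counted from day 14 of feeding. Other fat depots of these mice were not analysed here.

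White fat is laid down in depots that differ in origin. The visceral depots, which include the epididymal pad, are covered by mesothelium, a sheet of flat cells that makes Wt1, Upk3b and Msln, and their stromal cells make the transcription factor Tcf21. Subcutaneous fat has no mesothelial cover, and its cells are known for the developmental regulators Tbx15, Shox2 and Hoxc10. Subcutaneous pads such as the inguinal one also hold a lymph node and are crossed by nerves.

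Levels are given on 1 scale throughout, as the log2 processed signal of a probe minus the 75th percentile of log2 signals on the same array, and a level below that percentile is negative. Levels are compared between arrays for the same probe and never between probes. Of 40628 probes on the array, 28224 were well above background on at least 4 of the 12 arrays and were fitted, with the diet as a block, so that a difference is the mean of week 6 minus that of weeks 9 and 15 on the log2 scale. Between 61.9% and 66.4% of the spots were well above background on the 4 arrays of week 6, against 73.1% on the HF20 array and 53.7% to 77.2% at weeks 9 and 15. HF5 of week 9 was the dimmest of these arrays. No 2 of the 12 arrays shared a slide. The weeks 9 and 15 arrays were scanned on 1 date each and week 6 on 2 dates that held no other week, so that week and scan date cannot be told apart across weeks. Within week 6, HF75 and HF20 were scanned on the same date.

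The promoters of 2 of the 4 marker genes and of 2 genes that were higher at week 6 are shown, because Upk3b and Tcf21 were lower and Shox2 and Glycam1 higher on the 4 arrays. The sequences are those of RefSeq on build GRCm38.p6, 300 bases around the gene's start, written 5′ to 3′ on the strand of the gene. Wt1 and Tbx15 were not matched in the promoter table. The array's annotation, on build mm9, places Wt1 on chromosome 2, Upk3b on 5, Tcf21 on 10 and Tbx15 on 3. Capitals mark 4 motifs searched on both strands: CAGCTG, an E-box of the kind that basic helix-loop-helix factors such as Tcf21 bind; GGTGTGA, a T-box core; ACAAAG, a Sox core; and TATAAA. Upk3b lies at chr5:136038246-136038545 on the plus strand, Tcf21 at chr10:22820094-22820393 on the minus strand, Shox2 at chr3:66981722-66982021 on the minus strand and Glycam1 at chr15:103565032-103565331 on the minus strand.
Upk3b: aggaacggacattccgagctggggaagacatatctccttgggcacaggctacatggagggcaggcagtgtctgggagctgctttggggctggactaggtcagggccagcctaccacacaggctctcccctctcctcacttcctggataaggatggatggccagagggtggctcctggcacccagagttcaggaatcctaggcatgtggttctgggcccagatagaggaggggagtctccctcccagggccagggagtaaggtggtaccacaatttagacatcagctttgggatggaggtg
Tcf21: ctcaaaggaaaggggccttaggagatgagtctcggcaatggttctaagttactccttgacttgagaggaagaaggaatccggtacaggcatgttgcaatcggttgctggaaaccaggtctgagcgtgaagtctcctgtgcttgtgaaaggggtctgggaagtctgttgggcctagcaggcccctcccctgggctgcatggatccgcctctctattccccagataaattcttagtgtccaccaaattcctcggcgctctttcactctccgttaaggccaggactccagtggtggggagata
Shox2: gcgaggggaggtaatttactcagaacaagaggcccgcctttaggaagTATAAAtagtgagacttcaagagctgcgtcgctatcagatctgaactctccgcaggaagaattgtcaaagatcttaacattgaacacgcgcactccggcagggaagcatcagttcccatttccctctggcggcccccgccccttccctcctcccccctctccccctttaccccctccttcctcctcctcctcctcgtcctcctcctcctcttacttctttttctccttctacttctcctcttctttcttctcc
Glycam1: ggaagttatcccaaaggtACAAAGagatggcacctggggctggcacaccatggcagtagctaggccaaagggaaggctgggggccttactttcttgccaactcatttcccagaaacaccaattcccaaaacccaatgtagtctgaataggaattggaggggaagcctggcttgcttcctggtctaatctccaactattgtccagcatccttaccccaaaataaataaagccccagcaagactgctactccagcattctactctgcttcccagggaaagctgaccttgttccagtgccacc
The Upk3b and Tcf21 windows held none of the 4 motifs. The Shox2 window held TATAAA at position 48 from its 5′ end, and the Glycam1 window held ACAAAG at position 19. Among all 32851 promoters of the table, 16.3% held CAGCTG, 3.98% held GGTGTGA, 18.7% held ACAAAG and 13.6% held TATAAA. Of the 15 genes with the largest decreases described below, 12 were in the table, and 1 held CAGCTG, 1 GGTGTGA, 2 ACAAAG and 0 TATAAA. Of the 15 largest increases 10 were in the table, with 2, 0, 1 and 2 in the same order. These are matches of letters only, and a window without them says nothing of the factor.

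Wt1, the Wilms tumour transcription factor of mesothelium and visceral progenitors, was at -4.40 in LFC, -5.38 in HFC, -7.79 in HF5 and -7.57 in HF75 at week 6. It was well above background on the LFC and HFC arrays only. At weeks 9 and 15 its lowest, median and highest levels were 0.48, 1.42 and 2.36, so the 2 sets of arrays did not overlap. The fitted difference was -7.64 (SE 0.59), between means of -6.29 ± 1.66 (SD, n = 4) and 1.36 ± 0.60 (SD, n = 8).

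Upk3b, a uroplakin found on the mesothelial surface, was not well above background on any of the 4 arrays, where its levels were -7.37 in LFC, -7.70 in HFC, -7.92 in HF5 and -8.24 in HF75. At weeks 9 and 15 its levels ran from -3.22 to 0.21 with a median of -0.54. The probe was therefore at least 27.6-fold lower at week 6, a bound taken against the lowest signal that counted as well above background on each array.

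Tcf21, which marks the stromal cells of visceral fat, was at -3.70 in LFC, -5.10 in HFC, -5.95 in HF5 and -8.09 in HF75. The LFC and HFC arrays were again the 2 on which it was well above background. Its range at weeks 9 and 15 was -3.07 to 0.62 with a median of 0.11, and HF75 of week 15 was its lowest array there. The fitted difference was -5.19 (SE 0.74), and with the normexp background correction it was -2.83 and no longer passed an adjusted p of 0.05 in limma. The call was also lost without HF75 of week 6, at -4.63 with an adjusted p of 0.0516 in limma, and against week 9 alone, at -5.68 with 0.0621.

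Tbx15, a T-box factor of subcutaneous fat and of the trunk skeleton, moved the other way. On the brighter of its 2 fitted probes it was at -0.58 in LFC, -0.51 in HFC, -1.54 in HF5 and -0.72 in HF75 at week 6. At weeks 9 and 15 it was well above background on 1 of 8 arrays, HF75 of week 15, and its lowest, median and highest levels were -8.07, -6.66 and -3.81. The fitted differences of the 2 probes were 5.54 and 5.67. With normexp the first of them was 1.16 and no longer passed an adjusted p of 0.05 in limma, and the same call was lost when HF20 was added as a further group, with a difference of 4.01 and an adjusted p of 0.05 in limma. The remaining Tbx15 probe was well above background on 2 of 4 and 1 of 8 arrays and was not fitted, and its means were -5.90 ± 1.27 (SD, n = 4) and -7.33 ± 0.85 (SD, n = 8). The 3 probes thus disagreed in the size of the difference. In tissue RNA of this kind, fewer cells of a type and less RNA per cell cannot be told apart.

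**Figure D1:**
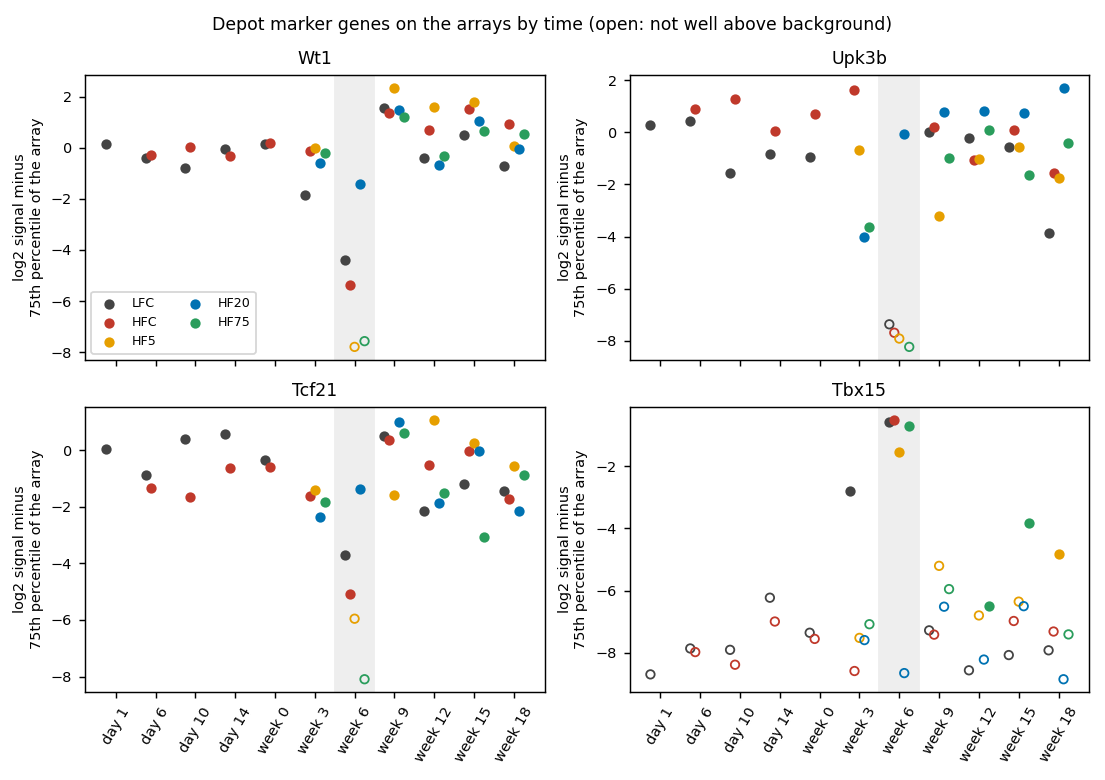
Levels of Wt1, Upk3b, Tcf21 and Tbx15 (y axis, log2 signal minus the 75th percentile of the array) on each array with a value, by time point (x axis) and diet (colour); open circles are values not well above background, and week 6 is shaded. At week 6 the LFC, HFC, HF5 and HF75 arrays lie apart from all other time points in the Wt1, Upk3b and Tcf21 panels, where HF20 lies with the other time points or close to them, and Tbx15 is bright on the same 4 arrays.

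The markers were also set against the 26 arrays that the comparison did not use. The lowest Wt1 level among them was -1.86, against a highest of -4.40 on the 4 arrays. Among the 25 of them with a value, the lowest Upk3b level was -4.03, against -7.37, and the lowest Tcf21 level was -2.35, against -3.70. The 2 fitted Tbx15 probes differed here. On the brighter one the highest level elsewhere was -2.81, on the LFC array of week 3, against a lowest of -1.54 on the 4 arrays. On the other one the LFC array of week 3, at -1.39, lay above the lowest of the 4 arrays, -1.46. The LFC array of week 3 had an unusual number of outlier spots, 16431, and its levels are less certain than those of other arrays.

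The HF20 array of week 6 did not share the marker pattern by which the other 4 arrays were chosen, so its marker levels describe that choice. Its Wt1 level was -1.40, below the range of weeks 9 and 15 but above the highest of the other 4 arrays, -4.40. Its Upk3b level was -0.07 and its Tcf21 level -1.36, both inside the range of weeks 9 and 15. Tbx15 was not well above background on it, at -8.65 on the brighter probe. HF75, scanned on the same date as HF20, had the lowest Upk3b and Tcf21 levels of all 4 arrays. These levels too describe the choice of arrays and are no test of scan date. Other genes set the HF20 array apart as well. The median of 17 immediate early genes was 0.30 on HF20, against 4.15 to 4.82 on the other 4 arrays and 4.10 to 4.90 at weeks 9 and 15. The median of 10 testis genes was 2.15, against -4.48 to -3.56 and -4.14 to 0.41.

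Over all probes fitted, 196 were lower and 235 were higher at week 6 at an adjusted p under 0.05 in limma, which is 0.694% and 0.833% of the probes, or 1.53% together. Since the arrays were chosen from the same values, these counts describe the arrays and support nothing further. The 4 levels of week 6 lay below all 8 others for 782 probes, 2.77% of those fitted, and above all 8 for 617 probes, 2.19%. Of the 2 probes on either side of the threshold, Mtap6 was just inside with a fitted difference of 1.33 and Ly6g6e just outside with -2.54. The counts depended on the background correction: with normexp, 10 probes were lower and 4 higher, while the median of all probes moved from -0.02 to -0.39. One array was enough to change them too, with 48 lower and 84 higher without HF75 of week 6, and 59 lower and 80 higher without LFC of week 6.

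Of the 15 gene names with the largest decreases, 6 stood on the mesothelium list. Muc16, a membrane mucin that carries the antigen CA-125, was at -7.19 in LFC, -6.53 in HFC, -7.81 in HF5 and -7.49 in HF75, on none of them well above background. At weeks 9 and 15 it ran from -0.63 to 1.80, so it was at least 70.6-fold lower at week 6. Msln, the mesothelial protein mesothelin that binds Muc16, was measured on all 4 arrays, at -4.00, -3.01, -4.26 and -3.56 in the same order. Its range at weeks 9 and 15 was 2.11 to 3.87, a fitted difference of -6.62 (SE 0.38). Upk1b, another uroplakin, was at least 14.6-fold lower, and Lrrn4, a leucine-rich repeat protein of mesothelium, at least 8.83-fold lower. Both were not well above background on any of the 4 arrays and were so on all 8 of the others.

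Akr1b7, an aldose reductase of the vas deferens and adrenal that is also made in visceral fat, was at -2.06 in LFC, -4.18 in HFC, -3.72 in HF5 and -7.30 in HF75, against 1.32 to 4.84. Lrp2, the endocytic receptor megalin, differed by -4.69 and Crb2, a polarity protein, was at least 5.63-fold lower. Slc38a5, a glutamine transporter, differed by -5.11, Fxyd4, a regulator of the sodium pump, by -5.28, and Sult1e1, the estrogen sulfotransferase, by -4.25. Pcnxl2, now named Pcnx2, was at least 18.6-fold lower and Lgals2, a galectin, at least 13.3-fold lower.

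Of these 15, 11 were lower on the 4 arrays than on every other array of the series with a value, HF20 of week 6 included. The other 4 were not. Akr1b7 was at or below its highest week 6 level on 12 arrays of other times, Fxyd4 on 8, Sult1e1 on 7 and Slc38a5 on 4. On the HF20 array of week 6, Akr1b7 was at -6.97 and Fxyd4 at -6.09, inside the range of the other 4 arrays. HF20 was nearer to the mean of weeks 9 and 15 than to that of the 4 arrays for 13 of the 15 decreases. It was nearer to weeks 9 and 15 for 40.6% of all probes fitted and for 77 of the 196 lower probes, 39.3%, so that its likeness to weeks 9 and 15 held for the leading genes and not for the lower probes as a whole.

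The largest increase was that of Glycam1. Glycam1, a mucin-like ligand for L-selectin made by the high endothelial venules of lymph nodes, was at 3.01 in LFC, 3.24 in HFC, 0.91 in HF5 and 1.90 in HF75. It was not well above background on any of the 8 arrays of weeks 9 and 15, where it ran from -8.45 to -6.06, so it was at least 238-fold higher at week 6. It was not well above background on HF20 of week 6 either, at -8.83. Its promoter is the one printed above that holds the Sox core.

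Several other increases were of genes known from myelin, the lipid sheath that Schwann cells wrap around nerve fibres, which were grouped after their values were seen. Prx, the periaxin of peripheral myelin, was at 2.24, 2.73, 0.06 and 1.11 in LFC, HFC, HF5 and HF75. Its range at weeks 9 and 15 was -4.73 to -3.22, a fitted difference of 5.70 (SE 0.38). Ugt8a and Gal3st1, which make the myelin lipids galactosylceramide and sulfatide, were at least 16.9-fold higher each. Mal, a proteolipid of myelin, differed by 5.70, Ncmap, a protein of non-compact myelin listed as A330049M08Rik, by 5.83, and Cmtm5 by 5.64. Mbp, myelin basic protein, differed by 7.86 on 1 of its 3 fitted probes, whereas its brightest probe differed by -0.25. The Mbp probes thus disagreed, and the gene is given with that reservation.

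Mlip, listed as 2310046A06Rik and known from muscle, was at least 81.4-fold higher, Sbspon, listed as Gm106, differed by 6.00, and Cfap100, listed as Ccdc37, by 6.26. Sostdc1, an antagonist of bone morphogenetic protein and Wnt signals, differed by 5.78, and Dhrs2, a short-chain dehydrogenase, by 5.67. LOC100047476, whose accession was not matched to a symbol, differed by 5.51. Of the 15 largest increases, 10 were higher on the 4 arrays than on every other array with a value. The exceptions were the less bright Tbx15 probe, Cmtm5 and Gal3st1, each met by the LFC array of week 3, Mal, met by 2 arrays of the first 2 weeks, and Cfap100, met by HFC of day 14. HF20 of week 6 was nearer to weeks 9 and 15 than to the 4 arrays for all 15, and for 151 of the 235 higher probes, 64.3%.

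**Figure D2:**
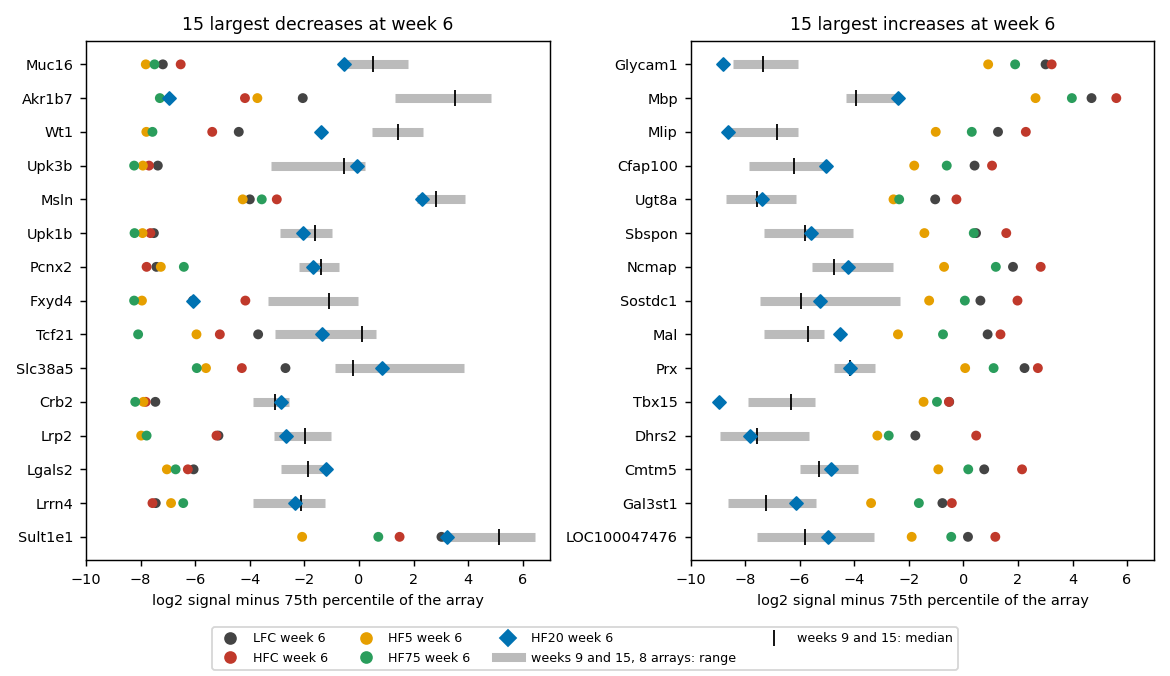
The 15 largest decreases (left) and increases (right) at week 6, with the level of each of the 4 arrays (coloured circles), the HF20 array (blue diamond), and the range and median of the 8 arrays of weeks 9 and 15 (grey bar and black tick), on the log2 scale relative to the 75th percentile of the array. The circles lie outside the grey bars in every row, since only such probes were eligible, and the HF20 diamond lies among the circles for Akr1b7 and Fxyd4 but on or nearer to the bar in the other rows.

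The list of visceral depot genes had 18 names, of which 15 were fitted. Nr2f1, Gata4 and Gata5 did not pass the filter on dim probes. All 15 fitted differences were negative, 10 passed an adjusted p of 0.05 in limma, against 0.694% of all probes, and the median was -3.67, against -0.02 for all probes. Wt1, Upk3b and Tcf21, by which the arrays were chosen, were among those that passed. The median level of the list was -3.81 to -1.39 on the 4 arrays. Of the 26 arrays that the comparison did not use, 3 lay at or below the highest of the 4, down to -2.35. Of the 15, 10 also stood on the mesothelium list, including Rspo1, a secreted activator of Wnt signalling at 0.07 to 0.43 against 3.45 to 4.45, and Nkain4 at -2.97 to -1.38 against 1.00 to 2.16. The mesothelial factor Bnc1 was not well above background on any of the 4 arrays and was at least 3.75-fold lower. Of the 5 names not on the mesothelium list, Tcf21 and Aldh1a2, a retinaldehyde dehydrogenase, passed. Aldh1a2 was at -0.93, -2.38, -3.81 and -1.57 in LFC, HFC, HF5 and HF75, against -0.74 to 1.75. Efemp1, Thbd and Gata6 did not pass, with differences of -1.82, -0.62 and -0.19, and Gata6, a factor of visceral mesoderm, was at 0.61 to 1.28 against 0.83 to 1.73. The decrease therefore did not cover every visceral name.

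The mesothelium list shared 10 fitted genes with the visceral list, Wt1 and Upk3b among them, so its decrease is largely that of the same genes. Of the 18 genes on the mesothelium list, all fitted, 10 passed as lower, against 0.694% of all probes, and 1, Igfbp5, as higher by 1.83, against 0.833%. The median level of the list ran from -4.09 to -1.59 on the 4 arrays, from -0.31 to 0.96 at weeks 9 and 15, and was -0.31 on HF20 of week 6. Of the 26 arrays that the comparison did not use, 3 lay at or below the highest of the 4, down to -2.72 on LFC of week 18. Of these 18 genes, Upk3b, Upk1b, Muc16, Lrrn4 and Bnc1 were not well above background on any of the 4 arrays. They therefore met the filter on dim probes only through weeks 9 and 15. Wt1 and Krt7 were well above background on 2 of the 4 arrays, and the other 11, Msln among them, on all 4. Keratins split the 4 arrays: Krt8 was at 2.22 in LFC and 1.68 in HFC, within the range of 0.03 to 2.45 at weeks 9 and 15, but at -2.21 in HF5 and -5.49 in HF75. Krt18 followed it, at 2.55, 2.57, -0.97 and -2.21. The part of mesothelial cells in the decrease of Tcf21 and Aldh1a2 was not tested.

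The list of subcutaneous depot genes was less uniform. Of 16 names 14 were fitted, and En1 and Lmx1b did not pass the filter. Of these, 11 differences were positive and 3 negative, with a median of 1.16, and 3 genes passed as higher, Tbx15, Hoxa10 and Shox2, against 0.833% of all probes. Tbx15 was 1 of the genes by which the arrays were chosen. Tbx15 and Shox2 were well above background on 1 of 8 arrays of weeks 9 and 15 and Hoxa10 on none. All 3 thus passed the filter on dim probes only through the arrays of week 6. The median level of the list, -1.19 to 0.22 on the 4 arrays, overlapped the -1.15 to -0.44 of weeks 9 and 15. Of the 26 arrays that the comparison did not use, 8 lay at or above the lowest of the 4, up to 0.28. Shox2, a homeobox factor of limb and subcutaneous fat, was at -3.77, -4.39, -5.29 and -3.52, against -7.72 to -5.67, and was well above background on 1 of 8 arrays there. Hoxc10 had means of -2.72 and -5.08 without overlap, and its difference of 2.36 did not pass. Dpt, Sfrp2, Tbx1 and Tmem26 differed by 1.24, 1.63, 1.34 and 1.07, Tbx18 by -0.65, and Hoxc9, Meox1, Meox2, Fzd4 and Itih5 by -0.18 to 0.24. None of these passed. On HF20 of week 6 Shox2 was at -9.02. No array of another time point with a value reached the lowest Shox2 level of the 4 arrays.

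Hox genes keep a record of position along the body axis, and Hoxa10 was the 1 of them that passed. Of 39 Hox genes on the array 26 were fitted, with a median difference of -0.10, and 0.833% of all probes passed as higher. Hoxa10 was at -3.18 in LFC, -2.30 in HFC, -2.91 in HF5 and -3.10 in HF75, and was not well above background on any of the 8 arrays of weeks 9 and 15. It was at least 6.78-fold higher at week 6. On HF20 of week 6 it was at -4.55, between the 2 sets, and LFC of day 14, at -3.02, was the only other array at the level of the 4. Hoxa9 differed by 1.91, between means of -1.72 and -3.63, and did not pass. Hoxa5, a marker that is usually higher in visceral fat, differed by -1.92 and did not pass either, and neither did Hoxc4 at -1.75 and Hoxc8 at -1.63. Hoxa6, Hoxb6 and Hoxc6 differed by -0.24, 0.49 and 0.19.

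**Figure D3:**
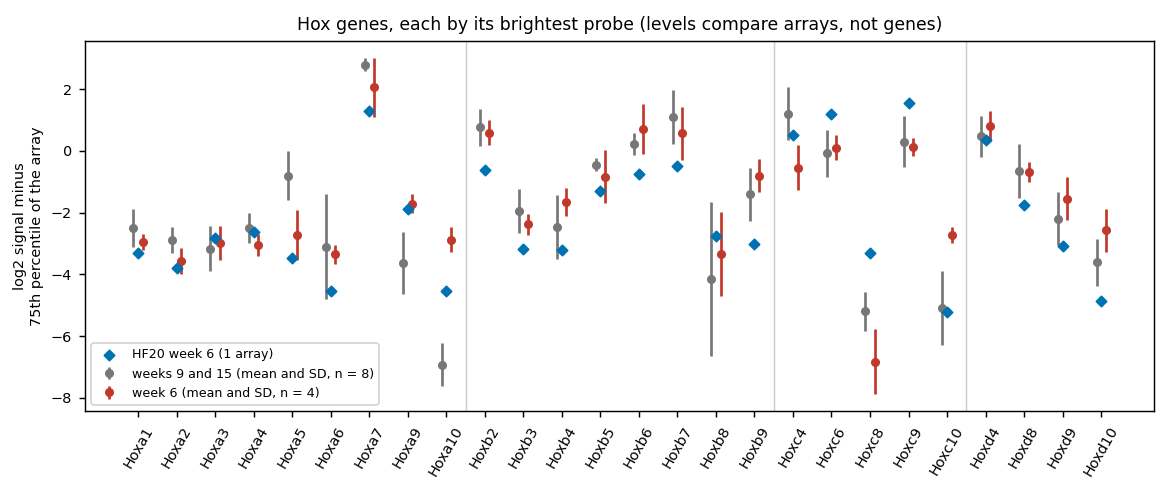
Levels of the 26 fitted Hox genes (y axis, log2 signal minus the 75th percentile of the array), ordered by cluster and number, as mean and SD of the 4 arrays of week 6 (red) and the 8 arrays of weeks 9 and 15 (grey), with the single HF20 array of week 6 as a diamond. Hoxa10 at -2.87 against -6.92 shows the widest gap.

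Of 37 other patterning factors fitted, 4 passed as higher, against 0.833% of all probes, and 1 as lower, against 0.694%. The median level of the list, -3.07 to -2.07 on the 4 arrays, overlapped the -3.50 to -2.28 of weeks 9 and 15. Of the 26 arrays that the comparison did not use, 15 lay at or above the lowest of the 4. Lhx8, a LIM homeobox factor, was at -2.27 in LFC, -2.70 in HFC, -3.07 in HF5 and -1.90 in HF75. It was not well above background on any of the 8 arrays and was at least 8.86-fold higher at week 6. Lhx8 thus met the filter on dim probes only through the arrays of week 6. Tbx5, a T-box factor of forelimb and heart, was at -2.02 to -0.75 against -7.30 to -4.16. Irx1 and Irx2, Iroquois factors of 1 cluster, differed by 3.16 and 3.54. Foxf2, a forkhead factor of visceral mesenchyme, was lower, at -6.05 to -4.60 against -3.18 to -1.71, and was well above background on 2 of the 4 arrays. Unlike Lhx8, Tbx5 and the Iroquois genes, Foxf2 was as low on HF20 of week 6, at -6.35, and on 12 arrays of other times. Irx1 and Irx2 reached the lowest level of the 4 arrays on 3 and 6 arrays of other times, and Lhx8 on 1, LFC of week 3. Tbx5 did so on none.

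Among the lists of other tissues, some genes of nerve, skeletal muscle and lymph node passed as higher. No gene passed in the liver, pancreas and gut, kidney and adrenal, skin and mammary, testis or epididymis lists. The brain and nerve list had 13 genes, 10 of them fitted, and 4 passed as higher, against 0.833% of all probes. They included Prx, by 5.70, and Sox10, a transcription factor of glial cells, by 4.45. Its median level was -0.31 to 2.07 on the 4 arrays and -3.19 to -2.02 at weeks 9 and 15, and all 26 remaining arrays lay below, at -4.32 to -1.14. The neuronal genes of the list, Nefl and Nefm, differed by -0.33 and -0.93, and Snap25, Syt1 and Gfap did not pass the filter. The skeletal muscle list had 16 genes fitted, with all 16 differences positive and 2, Tcap and Myh1, passing as higher against 0.833% of all probes, and its median level overlapped that of other times (-1.87 to 0.83 against -3.11 to -1.78 at weeks 9 and 15). The part of these cells in the depot gene differences was not tested.

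The lymph node and B cell list had 21 genes fitted, of which 1, Glycam1, passed as higher, against 0.833% of all probes. Its median was 0.43 in LFC, -1.04 in HFC and 0.27 in HF75 but -3.51 in HF5, within the range of -3.85 to -1.92 at weeks 9 and 15. Ccr7, the homing receptor of lymph node cells, was at 3.48, 2.09 and 2.26 in LFC, HFC and HF75 and at -2.06 in HF5, and the B cell receptor Cr2 was at -1.50, -2.65 and -1.81 against -6.33. HF5 thus had lower Ccr7 and Cr2 levels than the other 3 arrays. It also had the lowest Glycam1 level of the 4, 0.91, against a highest of -6.06 at weeks 9 and 15. The part of lymph node cells in the Glycam1 and depot gene differences was not tested.

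The epididymis lies beside this fat pad, and its genes were at low levels on the 4 arrays. All 16 fitted genes of that list had negative differences and none passed. The median of the list was -8.13 to -4.73 at week 6 and -6.33 to 2.75 at weeks 9 and 15, where the high end was LFC of week 9. It was -0.81 on HF20 of week 6. Of the 26 arrays that the comparison did not use, 15 lay at or below the highest of the 4, down to -8.27. Low levels of this list were therefore not particular to the 4 arrays. Lcn5, Gpx5, Lcn8, Cst11 and Svs4, secreted by the epididymis or seminal vesicle, were not well above background on any of the 4 arrays.

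**Figure D4:**
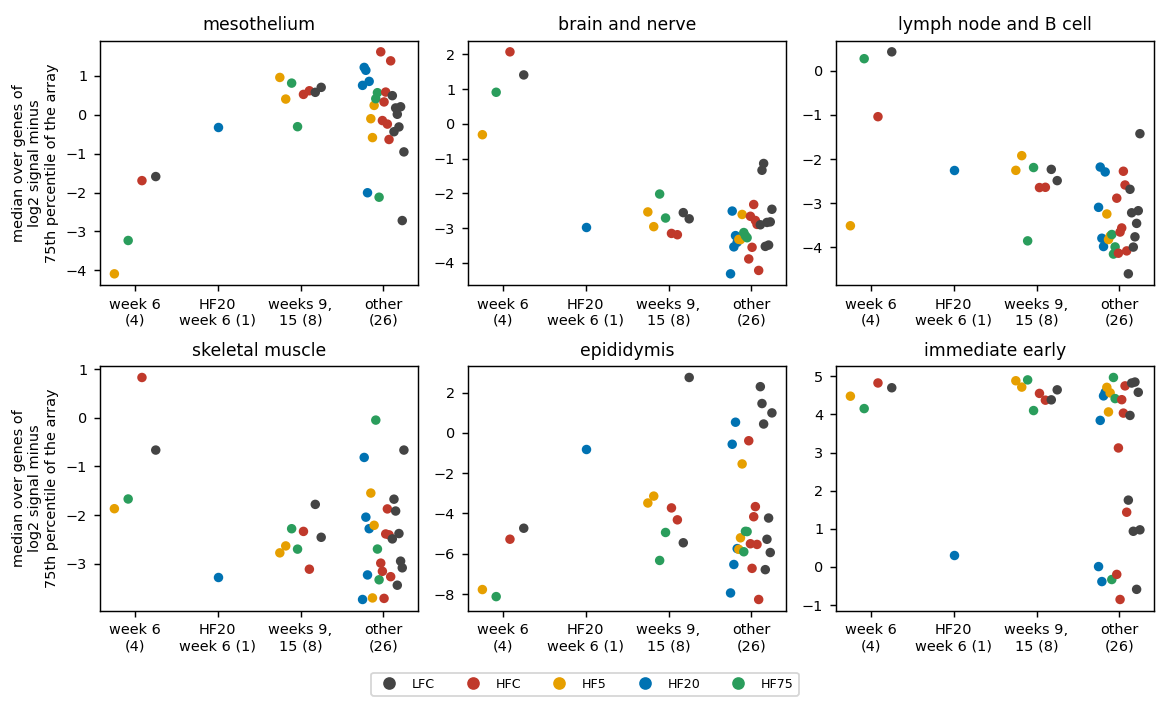
Median level of 6 gene lists on each array (y axis, median over the fitted genes of log2 signal minus the 75th percentile of the array) for the 4 arrays of week 6, the HF20 array of week 6, the 8 arrays of weeks 9 and 15 and the 26 arrays of other times, coloured by diet. The brain and nerve list puts the 4 arrays above all others, the mesothelium list puts them below weeks 9 and 15, and HF20 of week 6 lies below the 4 arrays and the 8 of weeks 9 and 15 in the immediate early list.

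Adipocyte genes were looked at as genes of fat in general, and they do not check the depot named in the label. Adiponectin, the adipocyte hormone Adipoq, was at 3.26 in LFC, 4.36 in HFC, 5.37 in HF5 and 2.79 in HF75, against 3.02 to 5.62 at weeks 9 and 15. Fabp4 was at 6.49 to 7.06 against 6.03 to 9.05 and Plin1 at 0.83 to 3.50 against 0.61 to 3.97. Of 21 adipocyte genes none passed in either direction, 17 differences were negative and 4 positive, and the median difference was -0.70. The median level of the list was 3.26 in LFC, 2.69 in HFC, 4.19 in HF5 and 1.96 in HF75, against 2.52 to 5.17 at weeks 9 and 15. By this median LFC, HFC and HF5 lay within the range of weeks 9 and 15 and HF75 below it. The 26 arrays that the comparison did not use had a median of 5.39, and 8 of them lay at or below the highest of the 4. Of the 15 fitted visceral genes 4, Upk3b, Upk1b, Lrrn4 and Bnc1, were not well above background on any of the 4 arrays. The Y-linked genes Ddx3y, Eif2s3y and Kdm5d were well above background on all 4 arrays, Uty on 1 of them, and Xist did not pass the filter.

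The diets did not share the pattern to the same degree. Taking each diet against its own arrays of weeks 9 and 15, the median over the 15 visceral genes was -3.31 in LFC, -3.40 in HFC, -4.44 in HF5 and -3.57 in HF75, against -1.14 in HF20. The subcutaneous median was 1.39, 0.60, 0.69 and 1.54, against -0.10 in HF20. The brain and nerve median was 2.11, 2.89, 0.25 and 1.11, against -0.34 in HF20. LFC and HFC kept measurable Wt1 and Tcf21 and the higher keratin levels, HF5 and HF75 did not, and HFC had the highest nerve and muscle levels of the 4. With 1 array per diet these orders have no replicate.

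**Figure D5:**
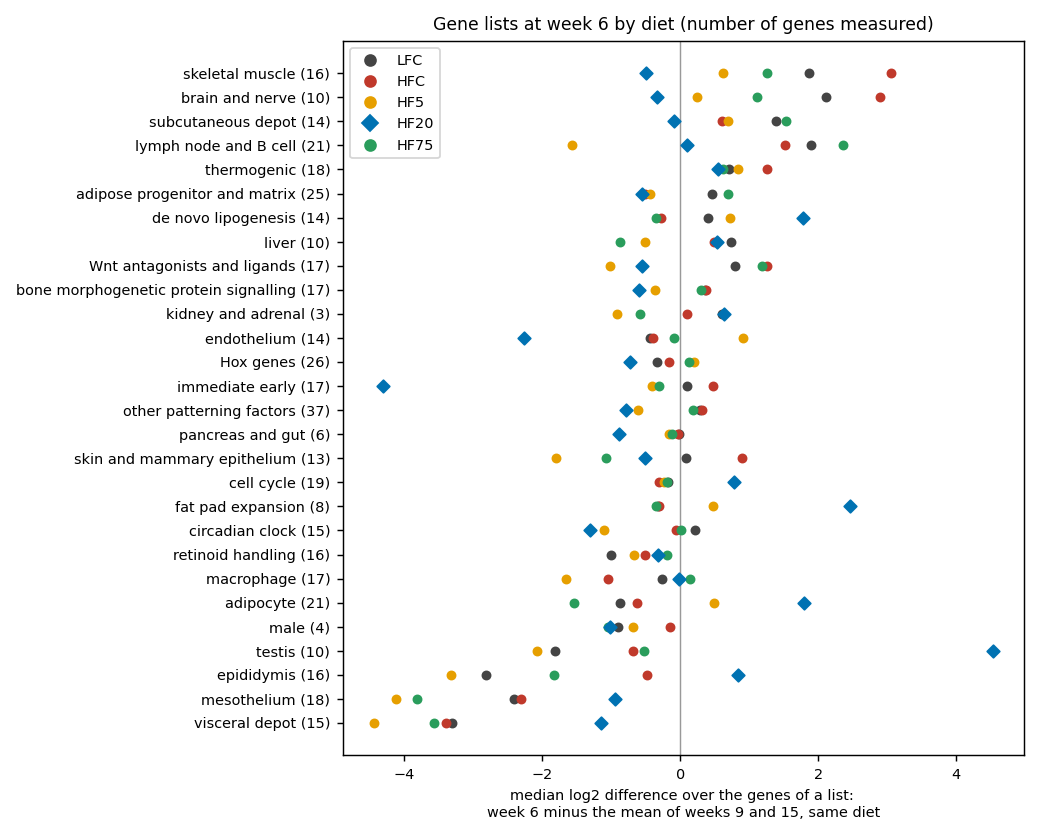
Median log2 difference over the fitted genes of each list (x axis), week 6 minus the mean of weeks 9 and 15 of the same diet, for LFC, HFC, HF5, HF75 (circles) and HF20 (diamonds), with the number of genes in brackets. The visceral list lies between -4.44 and -3.31 in the 4 diets, and HF20 stands apart in the testis and immediate early lists.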

How the data were processed

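Epididymal fat of 5 diet groups was measured on 39 arrays, 1 per group and time point, and groups and weeks were taken from the labels. The deposited scanner tables hold spot intensity from Agilent Feature Extraction (version 9.1 per the labels, 10.5.1.1 per the file headers), background-subtracted and detrended within each array but not normalised between arrays. The authors' series table holds log2 differences of each array from the LFC array of its time point, made in GeneSpring GX. These are the authors' own comparisons and their values were not used, only the gene annotation (build mm9). From the scanner tables, log2 processed intensity of spots that are no controls was taken, outlier spots were set to missing, the 75th percentile of each array was subtracted, and spots of a probe were averaged. Probes that reached the scanner's well-above-background call on 4 or more of the 12 arrays were fitted with limma 3.58.1 in R 4.3.3 (lmFit and eBayes, diet as block), with Benjamini-Hochberg adjustment over 28224 probes. The signal over background and the number of arrays limit the precision, and no read depth applies. With the data simulated at the size of this comparison, 42 of 100 probes changed by 2 and 94 of 100 changed by 4 on the log2 scale were recovered, with 8 false calls among 27965 probes.

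The arrays, markers, gene lists and named genes were chosen with earlier results of these data known. Genes named are the 4 markers, the 15 names with the largest difference in each direction (adjusted p under 0.05, no overlap of 4 with 8 arrays, a value on all 12, well above background on every array of the higher group), the members of the depot, mesothelium, Hox and patterning lists by their brightest fitted probe, and up to 4 members of other lists with the largest difference. The rule does not cover Ccr7, Adipoq, Fabp4, Plin1, Cr2, Nefl, Nefm, the secreted epididymal genes and the Y-linked genes where they fall outside it, and these were chosen after their values were seen. Where no array of a group had that call for a probe, the fold is a bound. Symbols were updated through RefSeq accessions, which matched 28136 of 40628 probes. Alternatives in background correction, normalisation, filter, design, reference weeks and arrays were run, and p-values reflect only the spread between these arrays. Some members of the brain and nerve list are not reported here by name.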

Additional observations from a re-analysis of the deposited data

Results flagged for a closer look

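Of 96 groups of arrays tested over the 4 markers and 28 list medians, 10 had 1 array far from the rest by Dixon's ratio of its gap to the whole range, where chance alone marks about 1 in 20. Among the 5 arrays of week 6, HF20 was that array for Upk3b (ratio 0.894, level -0.07 against a nearest of -7.37), Tbx15 (0.873, -8.65 against -1.54), the testis list (0.861, 2.15 against -3.56) and the immediate early list (0.851, 0.30 against 4.15). The arrays of week 6 were chosen with the marker values known, so the ratios of Upk3b and Tbx15 describe that choice.

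Among the 8 arrays of weeks 9 and 15, HF75 of week 9 was the lowest for the mesothelium list (0.561, -0.31 against 0.40). HF5 of week 9, the dimmest array, was the highest for the thermogenic list (0.59, -1.42 against -2.10). HF75 of week 15 was the lowest for the lymph node and B cell list (0.626, -3.85 against -2.65) and the cell cycle list (0.537, -3.16 against -2.07). LFC of week 9 was the highest for the epididymis list (0.648, 2.75 against -3.14), and HF5 of week 15 the lowest for the pancreas and gut list (0.552, -4.93 against -3.17).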

How the results depend on the processing

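The count of lower probes moved by over 1.5 times in 20 of 27 alternatives and that of higher probes in 10 of 27. Neither the visceral nor the subcutaneous median nor any of the 4 markers changed sign in the alternatives run. For probes lower at week 6, 196 became 10 with normexp, 123 without the filter, 111 when all 12 arrays had to be well above background, 394 without the diet block, 125 with scan date as a random block, 54 against week 9 alone, 65 against week 15 alone, 98 against weeks 3 to 18, 469 with HF20 added, 344 in the methods' t-test with Benjamini-Hochberg adjustment and 2993 without it. For probes higher at week 6, 235 became 4 with normexp, 72 with the filter on all 12 arrays, 361 without the diet block, 36 against week 9, 94 against week 15, 377 against weeks 3 to 18 without LFC of week 3 and HFC of week 12, and 2477 in the unadjusted t-test. Leaving out 1 array gave 48 to 251 lower and 80 to 326 higher probes. Lower probes numbered 48 without HF75, 59 without LFC, 81 without HFC and 114 without HF5 of week 6. They numbered 126 without LFC, 102 without HFC and 129 without HF75 of week 9, and 123 without LFC and 107 without HFC of week 15. Higher probes numbered 84, 80 and 115 without HF75, LFC and HFC of week 6.

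The visceral median of -3.67 became -2.24 with normexp, -1.82 with the filter on all 12 arrays, which left 9 genes, and -3.06 against weeks 3 to 18, and was -3.76 to -3.56 with 1 array left out. The subcutaneous median of 1.16 became 0.29 with normexp, 0.17 with the filter on all 12 arrays, which left 9 genes, 0.57 against week 9 and 0.60 with HF20, and was 0.76 to 1.41 with 1 array left out. Normexp moved the median of all probes to -0.39 and median scaling to -0.15. Wt1 and Upk3b passed in all 24 alternatives run on them, which do not include the filter on all 12 arrays, since neither probe passes it. The arrays were chosen by the 4 markers, so these passes and the unchanged signs of the markers describe that choice and support nothing further. Apart from the change in genes or arrays that a setting makes, the cause was not tested. The HF20 difference in the authors' table was not run, since it is their own comparison. No paired analysis was possible because the replicate numbers only count the arrays of a diet in order of time.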

Other observations

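All 18 fitted thermogenic genes had positive differences at week 6, with a median of 0.87. The median difference was positive in HF20 too, at 0.55. The list had a median level of -1.35 on the 4 arrays and -2.41 at weeks 9 and 15. It was -1.50 on the 26 arrays that the comparison did not use, 19 of which were at or above the lowest of the 4. Kcnk3, a potassium channel of brown adipocytes, passed at 2.10, where 0.833% of all probes passed as higher. Ucp1, the uncoupling protein, was at -2.94 to -0.46 against -4.74 to -2.44, and Cidea, a lipid droplet protein, at -0.65 to 2.75 against -2.23 to 0.30, and neither passed. HF20 of week 6 had Ucp1 at -6.87 and Cidea at 0.25.

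Of 25 progenitor and matrix genes, Mmp3, the matrix protease stromelysin, was the 1 that passed, where 0.833% of all probes passed as higher. Mmp3 was at 3.10 to 4.64 against -1.48 to 0.29, and at -1.71 on HF20 of week 6. Of 16 retinoid genes 2 passed as lower, where 0.694% of all probes did. Aldh1a3, a further retinaldehyde dehydrogenase, was lower at -1.58 to -0.21 against 1.59 to 3.96. Of 17 macrophage genes 1 passed as lower, where 0.694% of all probes did. Lyve1, a hyaluronan receptor of lymphatic vessels and resident macrophages, was lower, with a difference of -2.42. Sfrp5, a secreted Wnt antagonist of adipocytes, was at -3.80 to -2.12 against -6.57 to -4.21, and at -0.89 on HF20 of week 6. No gene passed among 14 lipogenesis, 17 bone morphogenetic protein, 14 endothelial, 19 cell cycle, 15 circadian, 17 immediate early, 13 skin and mammary, 10 testis, 10 liver, 6 pancreas and gut and 3 kidney and adrenal genes, where 1.53% of all probes passed in limma and 4931 of 28224 had an unadjusted p under 0.05.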
